A study of Rattus norvegicus with 8 samples.

Results

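The genes described here mark the secretory and ciliated cells that line the airways. The list holds 10 rat genes: the secretoglobins Scgb1a1, Scgb3a1 and Scgb3a2, the ciliated cell factor Foxj1, the mucins Muc1, Muc4, Muc5ac and Muc5b, and the mucous cell genes Agr2 and Spdef. A probe counted for a gene when its RefSeq accession belonged to that gene. Of the 10 genes, 5 had such a probe (Scgb1a1, Scgb3a1, Scgb3a2, Agr2 and Spdef), with 1 probe and 1 spot each, among 13888 genes named in this way. Foxj1 and the mucins Muc1, Muc4, Muc5ac and Muc5b were not analysed here. To describe the airway beyond these genes, 3 longer lists were used, of 20 club cell genes, 69 ciliated cell genes and 47 mucous cell genes, of which 20, 37 and 35 had a probe. The lists include those of the 10 genes that belong to them.

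The arrays came from a model of lung cancer in F344 rats given NNK, the tobacco-specific nitrosamine 4-(methylnitrosamino)-1-(3-pyridyl)-1-butanone. At week 95, 3 lung tumors and 3 matched pieces of normal lung were taken from NNK-treated rats, so both lung groups carried the treatment and no lung of an untreated rat was on an array. Clots from whole blood gave 1 array of a control rat and 1 array of an NNK-treated rat. The last array is called a clot by its title, although its free-text description is that of tumor 3. The summed signal of its 3 red blood cell probes was 1901070. That sum was 1794440 on the control blood array and 140202 to 150597 on the tumor arrays. Total RNA was labelled with a single dye and hybridised to a rat lncRNA array that also carries mRNA probes. The value of every gene named below is from an mRNA probe. Shares and medians over all probes, and the closeness of arrays, also drew on the other probes.

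The airway surface is kept by a few kinds of epithelial cells. Club cells secrete secretoglobins, the most abundant of which is Scgb1a1 (uteroglobin), and carry enzymes such as cytochromes P450 and flavin monooxygenases that act on inhaled chemicals. Ciliated cells bear motile cilia built on an axoneme of microtubules, dynein arms and radial spokes, and their program is run by Foxj1 and RFX factors. Mucous (goblet) cells make gelling mucins that are folded with the help of the disulfide isomerase Agr2, under the transcription factor Spdef.

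Promoter sequences are shown for the gene that defines club cells (Scgb1a1) and for those called higher in the tumors (Scgb3a1 and Spdef). RefSeq's table for build GRCr8 held a window of 250 bases before and 50 after the start for 7 of the 10 genes. The windows were searched on both strands for TGTTTAC and TGTTTGC, which forkhead factors bind, CTCAAG, a core bound by NKX2-1, and GTTGCC, a core of RFX sites. The 250 bases before the start are printed 5′ to 3′ on the gene's own strand, with matches in capitals.
Scgb1a1, chr1:215409687-215409936, minus strand: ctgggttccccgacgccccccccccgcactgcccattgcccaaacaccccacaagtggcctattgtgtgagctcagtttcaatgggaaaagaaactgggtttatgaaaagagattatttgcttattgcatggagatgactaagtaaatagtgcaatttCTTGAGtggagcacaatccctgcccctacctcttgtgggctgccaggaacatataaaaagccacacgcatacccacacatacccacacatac
Scgb3a1, chr10:34468916-34469165, plus strand: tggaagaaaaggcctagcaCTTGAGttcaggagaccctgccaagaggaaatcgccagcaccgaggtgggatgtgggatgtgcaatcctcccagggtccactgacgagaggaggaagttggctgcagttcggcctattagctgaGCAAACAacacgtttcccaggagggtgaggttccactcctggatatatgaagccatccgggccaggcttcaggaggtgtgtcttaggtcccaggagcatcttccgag
Spdef, chr20:5787686-5787935, minus strand: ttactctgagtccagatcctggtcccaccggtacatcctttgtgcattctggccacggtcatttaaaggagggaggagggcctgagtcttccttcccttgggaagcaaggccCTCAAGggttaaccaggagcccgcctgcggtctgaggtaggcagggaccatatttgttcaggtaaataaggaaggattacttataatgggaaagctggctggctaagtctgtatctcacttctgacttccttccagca

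The CTCAAG match began 92 bases before the Scgb1a1 start, 231 before the Scgb3a1 start and 138 before the Spdef start. Scgb3a1 also held the TGTTTGC motif, 107 bases before its start. The window of Scgb3a2 held CTCAAG 229 bases before the start, and that of Agr2 held none of the motifs. Among all 33469 promoter windows of the table, 15.8% held CTCAAG, 4.88% held TGTTTGC, 3.78% held TGTTTAC and 12.2% held GTTGCC. These are matches of letters only.

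The signal of Scgb1a1, the defining club cell gene, was very bright in every lung sample. The processed signal was 261103, 265060 and 281403 on normal lung arrays 1 to 3 and 289705, 276529 and 270206 on tumor arrays 1 to 3. The lung groups overlapped, and none of these spots was saturated. After quantile normalization the log2 fold change of tumor over normal lung was -0.07 (SE 0.075, adjusted p = 0.456, limma). A 75th percentile shift in place of quantile normalization gave a value on the other side of 0, at 0.019. In bulk tissue fewer cells of a type and less RNA per cell cannot be told apart.

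Scgb3a1, a secretoglobin of the larger airways, stood higher in the tumors. Its signal was 195, 244 and 216 on the normal lung arrays and 3361, 2389 and 2147 on the tumor arrays. Every tumor array lay above every normal array. The spot was marked as uneven on tumor arrays 2 and 3, so the gene could be tested only with marked spots kept. In that fit it rose 11.2-fold, a log2 fold change of 3.48 (SE 0.177, adjusted p = 3.14e-05). With the slide as a block, which rests the comparison on tumor 1 and the normal arrays of the same slide, the log2 fold change was 3.85.

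Scgb3a2, a secretoglobin of club cells, gave signals of 9806, 10753 and 8982 in normal lung and 9072, 6246 and 6544 in the tumors. The groups overlapped, tumor 1 lying within the normal range. All 6 of its lung spots were marked as uneven. With marked spots kept its log2 fold change was -0.30 (SE 0.142, adjusted p = 0.115). A slide term moved it to 0.0047.

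Spdef was dim throughout. Its signal was 4.63, 4.20 and 5.38 in normal lung, where no array was well above background, and 18.4, 64.1 and 15.3 in the tumors, where all 3 were. Every tumor array lay above every normal array, and tumor 2 lay above the other two. The fitted log2 fold change was 2.19 (SE 0.610, adjusted p = 0.0239). Normal lung gave only an upper limit, which sets each dim array at the lowest quantile-normalized signal among probes well above background. Against it the mean of the tumors was at least 1.67-fold higher on that scale. The bound is for the mean and not for each tumor, as the log2 values of tumors 1 to 3 were 4.387, 5.841 and 3.541. With normexp background correction the fitted log2 fold change was 0.40. The replicate block pairs each tumor with the normal piece of the same number. With this block the adjusted p was 0.0624, and 0.143 in a fit with a slide term. Leaving out normal array 1, 2 or 3 gave adjusted p-values of 0.0565, 0.0734 and 0.0513, and without any 1 of the tumors the probe failed the filter.

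Agr2 was near background in lung. Its signal was 6.78, 3.94 and 6.05 in normal lung and 5.67, 11.3 and 12.5 in the tumors. It was well above background only on tumors 2 and 3, so it was not tested and no fold is given.

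**Figure D1:**
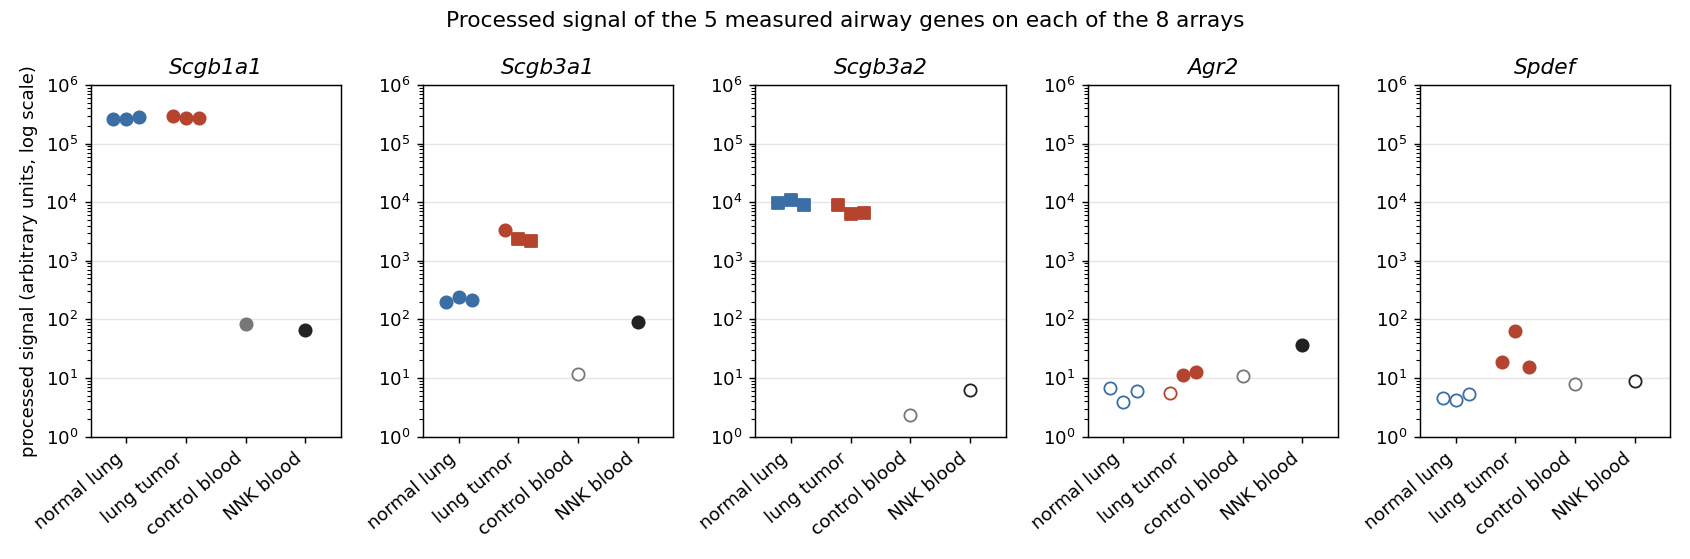
Processed signal (arbitrary units, log scale) of the 5 measured genes on the 3 normal lung, 3 lung tumor and 2 blood arrays, 1 point per array. Open points were not well above background and squares were marked as uneven spots; Scgb3a1 stood at 195 to 244 in normal lung and 2147 to 3361 in the tumors, while Scgb1a1 overlapped.

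A probe was called when it differed at least 2-fold with an adjusted p of at most 0.05 over all probes tested. With marked spots left out, 2 members could be tested, of which 1 was higher (Spdef) and 0 lower in the tumors, while 13.5% of the 12471 probes tested were higher and 15.5% lower. Spdef passed the filter through the tumors alone, so this count is only a description, and with all 6 arrays required to be above background it was 0. The count of lower members was 0 also with limma's unadjusted p and with the methods' t-test. With marked spots kept, 4 members could be tested, of which 2 were higher (Scgb3a1 and Spdef) and 0 lower, against 13.5% higher and 14.4% lower of 15803 probes. One of these is again Spdef, so the count is not read against those shares. The median log2 fold change over all probes was 0.065 with marked spots left out and 0.064 with them kept.

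The lung arrays differed in a few ways that touch these values. The normal arrays and tumor 1 shared 1 slide and tumors 2 and 3 another, by scan times in the file headers. Spots marked as outliers, for uneven pixels or otherwise, were 4.92% to 8.62% of the spots above background on normal arrays and 15.9% to 25.3% on tumor arrays. Between 2 normal arrays the squared difference of probe means was 0.803 to 1.36 times what the spread between spots of 1 probe gives, and between tumors 2 and 3 it was 0.585 times, against 5.86 and 6.06 for tumor 1 with either. These samples therefore stood about as close as repeat measurements, so values are given per array, and calls were also made with the normal arrays counted as 1 sample and tumors 2 and 3 as 1. The labels do not say that each piece of lung came from a rat of its own, so p-values measure only the spread between these samples.

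Of the 20 club cell genes, 17 exceeded background on all 6 lung arrays, as did 67.7% of mRNA probes. The called genes ran both ways, with Retnla, Lypd2, Chad and Bpifa1 among those that rose and Fmo2, Cyp4b1 and Aldh1a1 among those that fell. With marked spots left out, 12 could be tested, of which 5 were higher and 3 lower, against 13.5% and 15.5% over all probes. With them kept, 17 could be tested, of which 7 were higher and 5 lower, against 13.5% and 14.4%, and the median log2 fold change was 0.046, against 0.064 over all probes. In that fit 7 lay above the normal range on every tumor array and 6 below it, shares that were 38.3% and 34.7% over all probes.

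Among the genes tested with marked spots left out, Retnla, Lypd2 and Chad rose the most. Retnla, a resistin-like protein that airway epithelium and macrophages secrete in type 2 inflammation, had signals of 11949, 11555 and 10805 in normal lung and 216943, 193211 and 211734 in the tumors. Its log2 fold change was 4.21 (SE 0.068, adjusted p = 3.52e-06). Lypd2, a Ly6 family protein, went from 3955, 4185 and 3976 to 41216, 40735 and 40219, a log2 fold change of 3.42. Chad (chondroadherin), a leucine-rich matrix protein, went from 111, 122 and 110 to 1102, 997 and 956, a log2 fold change of 2.99. In each of these genes the normal arrays lay close together and far below the tumors. Bpifa1, a secreted host defence protein of the upper airways that was chosen after its values were seen, went from 12561, 13376 and 12232 to 96447, 86392 and 85216, a log2 fold change of 2.90. Cyp2f4, a club cell cytochrome P450 named after its values were seen, also rose, with a log2 fold change of 1.08.

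Aldh1a1 and Krt15 fell in the same fit. Aldh1a1, a retinaldehyde dehydrogenase, went from 1938, 2166 and 2025 to 649, 673 and 589, a log2 fold change of -1.74 (SE 0.073, adjusted p = 2.03e-05). Krt15, a keratin of basal and some secretory cells, went from 5581, 6307 and 5814 to 2348, 1901 and 1704, a log2 fold change of -1.50. No array of one group reached the other in these genes. For Krt15, with near-identical arrays counted once, the adjusted p was 0.0688.

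Fmo2, a flavin monooxygenase gene, and Cyp4b1, a lung cytochrome P450, were named after their values were seen and were tested only with marked spots kept. Fmo2 went from 116237, 130062 and 128645 to 9455, 8971 and 7880, a log2 fold change of -3.85. Cyp4b1 went from 162367, 161336 and 142693 to 50072, 55862 and 54814, a log2 fold change of -1.58. Among the genes that were not called, Cldn10, a tight junction protein of club cells, had a log2 fold change of 0.06, Upk3a, a uroplakin, 0.05, and Hes1, a target of Notch signalling, -0.68.

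The ciliated cell genes moved less but mostly one way. Of the 37 with a probe, 31 exceeded background on all 6 lung arrays. With marked spots left out, 27 could be tested, of which 1 was higher and 5 lower. Over all probes 13.5% were higher and 15.5% lower, so the share called lower was near that of all probes. Of the 27, 25 had a negative log2 fold change with a median of -0.57. With them kept, 33 could be tested, of which again 1 was higher and 5 lower, the latter also near the 14.4% of all probes. In that fit 30 had a negative log2 fold change with a median of -0.59, and 24 lay below the normal range on every tumor array. Over all probes 47% were negative and 34.7% lay below the normal range. The list's median was negative under each setting run, from -0.60 without tumor 1 to -0.35 with normexp background correction. Without tumor 1 the list had 2 higher and 9 lower of 25 tested. It had 3 lower of 25 without tumor 2 and 3 lower of 27 without tumor 3. Over all probes 2052 of 10971, 1712 of 10804 and 1744 of 11490 were lower without tumor 1, 2 and 3. Without tumor 1, 1351 of all probes were higher.

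Of the 5 called lower, Efhc2, Tppp3 and Cfap52 fell the most. Efhc2, an EF-hand protein of axonemal microtubules, had signals of 1966, 1885 and 1849 in normal lung and 506, 413 and 383 in the tumors, a log2 fold change of -2.20 (SE 0.130, adjusted p = 6.48e-05). Tppp3, a tubulin polymerization protein that marks ciliated cells, went from 117776, 121311 and 123982 to 46059, 37668 and 36587, a log2 fold change of -1.65. Cfap52, a protein inside the axonemal microtubules, went from 273, 409 and 405 to 214, 160 and 160, a log2 fold change of -1.23. The lung groups did not overlap in these genes, with Cfap52 the closest. Cfap52 was under 2-fold with the slide as a block, at -0.89, and with the arrays counted once its adjusted p was 0.118.

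Spag16, of the axoneme's central pair, and Ak8, an adenylate kinase of cilia, were the other two called lower, with log2 fold changes of -1.03 and -1.004. Most of the rest had negative values under 2-fold. Odad1, which docks outer dynein arms, had a log2 fold change of -0.99 (SE 0.091), Dnai1, a dynein intermediate chain, -0.95 (SE 0.093), and Drc1, of the dynein regulatory complex, -0.91 (SE 0.128). Tp73, a transcription factor of multiciliated cells, had -0.53 (SE 0.130). Some genes of the list hardly moved. Dnai2, also a dynein intermediate chain, had -0.09 (SE 0.072), Cfap206 -0.14 (SE 0.098) and Mns1 -0.08 (SE 0.199). These genes were chosen after their values were seen. Rfx2, an RFX factor of ciliated cells, was dim, with signals of 26.3, 23.4 and 18.3 in normal lung and 18.9, 13.8 and 11.2 in the tumors. Its lung groups overlapped (log2 fold change -0.94, adjusted p = 0.0800).

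Tekt2, a tektin of cilia and sperm flagella, went the other way. Its signals were 35.6, 33.0 and 35.3 in normal lung and 368, 298 and 170 in the tumors, a log2 fold change of 2.70 (SE 0.335, adjusted p = 0.00114). All tumor arrays lay above the normal ones, tumor 3 the lowest. With normexp background correction the log2 fold change was 1.39. With near-identical arrays counted once the adjusted p was 0.0526. Rsph1, a radial spoke head protein, had 10882, 11530 and 10851 in normal lung and 11607, 19463 and 24714 in the tumors, a log2 fold change of 0.85 that was not past 2-fold.

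**Figure D2:**
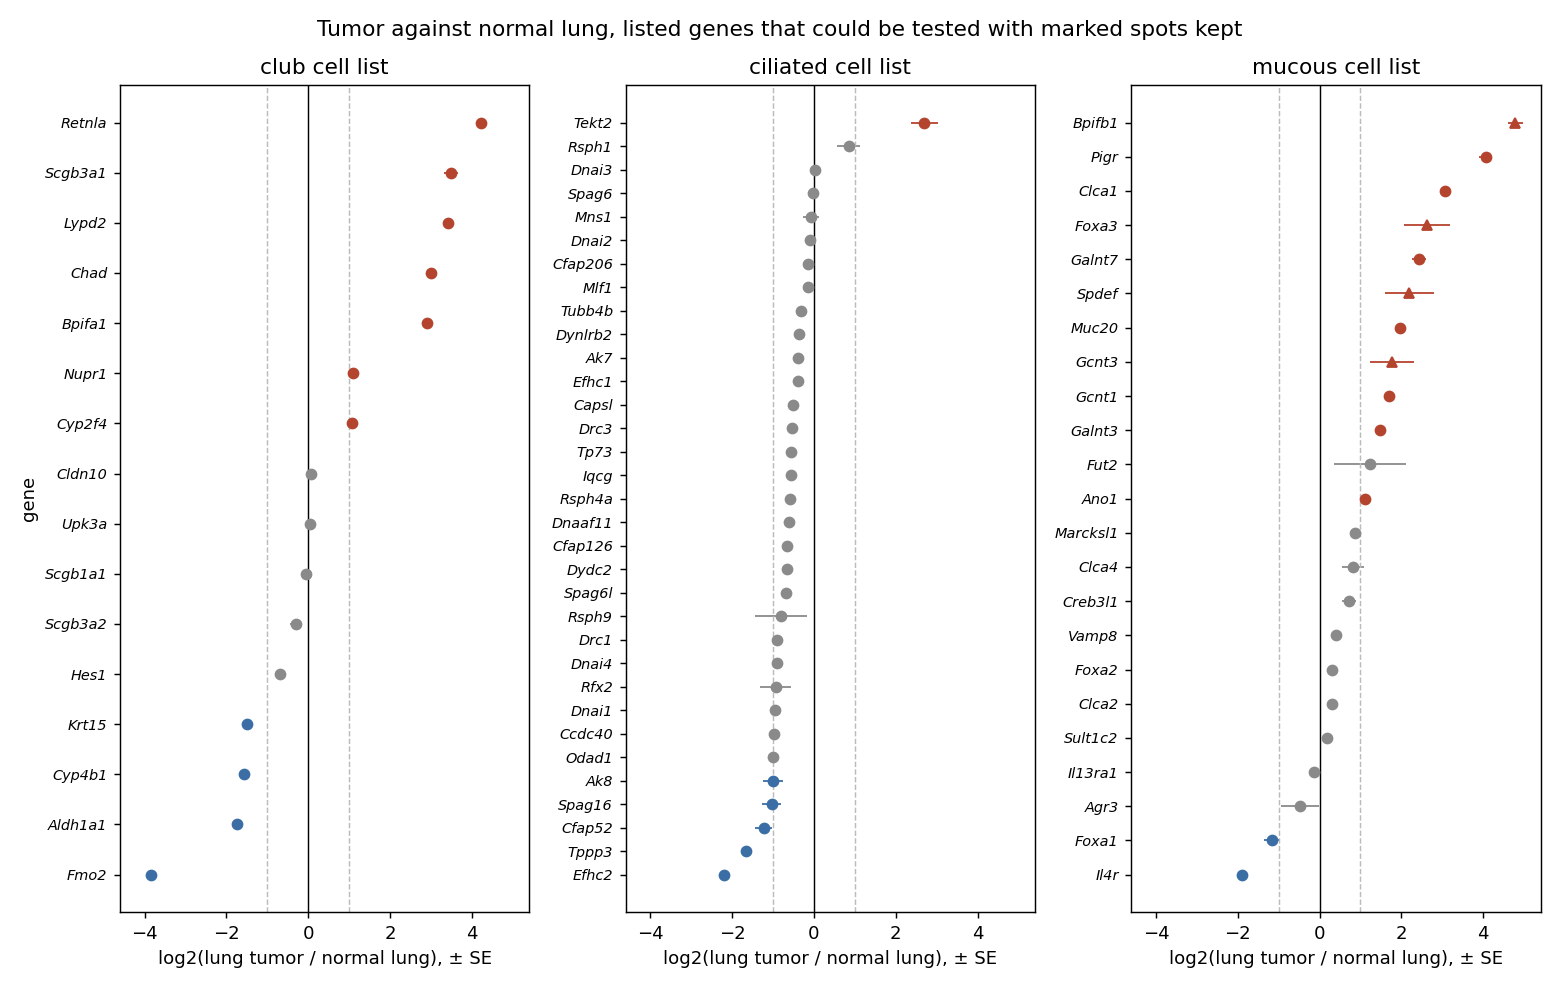
Log2 fold change of lung tumor over normal lung (x axis, bars are the SE) for the club, ciliated and mucous cell genes (y axis) that could be tested with marked spots kept, in red where called higher, blue where called lower and grey otherwise, with dashed lines at 2-fold. Triangles were dim on all 3 normal lung arrays; 30 of 33 ciliated cell genes lie left of 0 and 19 of 23 mucous cell genes right of it.

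The mucous cell genes leaned the other way, though many were dim. Of the 35 with a probe, 16 exceeded background on all 6 lung arrays and 9 on none, among these the trefoil factors Tff1 and Tff2. With marked spots left out, 18 could be tested, of which 9 were higher and 1 lower, against 13.5% and 15.5% over all probes, and the median log2 fold change was 1.35. In 4 of the 9 (Bpifb1, Foxa3, Gcnt3 and Spdef), no normal array was well above background, so they passed the filter through the tumors alone. With marked spots kept, 23 could be tested, of which 11 were higher and 2 lower, against 13.5% and 14.4%, with a median of 1.12. Requiring all 6 arrays above background left 11 genes, of which 4 were higher and the median was 0.72. Over all probes 1190 of 10573 were higher in that setting, with a median of 0.019. Without any 1 of the tumors 14 genes could be tested, of which 5 were higher, with medians of 0.77, 0.91 and 0.89 without tumor 1, 2 and 3. Over all probes 1351 of 10971, 1163 of 10804 and 1238 of 11490 were higher in these fits, with medians of -0.02, 0.032 and 0.04. The list's median was 0.43 with normexp and 0.48 with no filter on dim probes, against 0.046 and -0.011 over all probes.

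Clca1, a secreted protease of goblet cells that acts on mucus, had signals of 67.0, 62.8 and 57.0 in normal lung and 662, 587 and 570 in the tumors. Its log2 fold change was 3.07 (SE 0.107, adjusted p = 1.24e-05). Galnt7, which starts or extends the O-linked sugars of mucins, went from 19.3, 17.6 and 19.7 to 137, 119 and 110, a log2 fold change of 2.43, or 1.15 with normexp, with 2 of 3 normal arrays well above background. Muc20, a membrane mucin, went from 557, 567 and 537 to 2458, 2220 and 2124, a log2 fold change of 1.96. In all of these the lung groups stood apart on every array. The Muc20 signal was higher in blood than in lung, at 10339 in control and 5821 in NNK blood. On the log2 scale normalized over all 8 arrays it stood at 15.286 and 14.667 there, against 8.505 to 10.378 in lung.

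The gene that fell was Foxa1, a forkhead factor of airway and alveolar epithelium. Its signals were 128, 182 and 127 in normal lung and 93.8, 71.2 and 70.0 in the tumors, a log2 fold change of -1.16 (SE 0.200, adjusted p = 0.00420). The groups did not overlap. Its fold change was under 2-fold with a 75th percentile shift (-0.92) and with the slide as a block (-0.77).

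The following mucous cell genes were named after their values were seen. Bpifb1, a secreted protein of goblet cells and glands, had 9.52, 9.42 and 7.54 in normal lung and 353, 259 and 268 in the tumors, so it was at least 18.8-fold higher on the quantile-normalized scale. With normexp its log2 fold change was 2.08. Foxa3, a forkhead factor of goblet cells, was at least 1.54-fold higher and Gcnt3, a branching enzyme of mucin sugars, at least 1.14-fold higher on the same scale, and with normexp the log2 fold change of Foxa3 was 0.44. Pigr, the receptor that carries IgA into secretions, went from 546, 579 and 535 to 11906, 8899 and 7500, a log2 fold change of 4.06 with marked spots kept. Il4r, the receptor chain for interleukins 4 and 13, went from 34269, 34914 and 38113 to 10330, 8741 and 7545, a log2 fold change of -1.89 in the same fit. Foxa2 had a log2 fold change of 0.31 there.

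**Figure D3:**
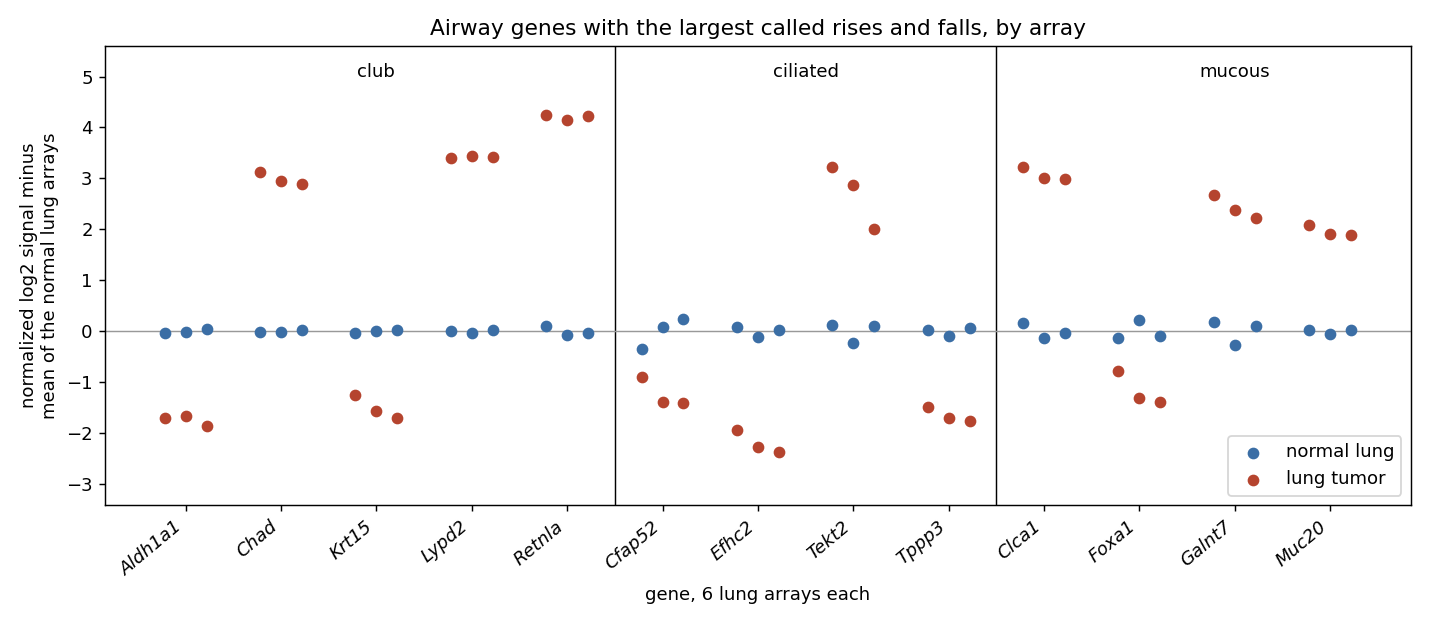
Normalized log2 signal of each lung array minus the mean of the 3 normal lung arrays (y axis) for club, ciliated and mucous cell genes named by rule (x axis), 1 point per array. They were among the largest called rises and falls with marked spots left out, groups apart and an array above background in both groups. Genes outside this rule, such as Bpifb1, Pigr and Fmo2, are not shown. Normal arrays lie near 0 in every gene, and the tumor arrays lie apart from them, from Efhc2 at -2.20 on average to Retnla at 4.21.

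Markers of other lung cells moved between the same samples. Over all 15803 probes tested with marked spots kept, 13.5% were called higher and 14.4% lower. With marked spots kept, 4 of 4 tested endothelial markers were lower, and the list's summed signal was 227698 to 238922 in normal lung and 44151 to 46708 in the tumors. Of the type 1 alveolar probes, 5 of 7 were lower, and their sum went from between 1227840 and 1340800 to between 367780 and 407145. Of the basal cell probes, 3 of 7 tested were higher, with sums of 777 to 879 and 2813 to 2929. Another 2, of Tp63, were not above background on any lung array. Those called were Ngfr (log2 fold change 2.95) and probes of Tp63 (1.03 and 1.003), named after their values were seen. Most basal cell probes were of Tp63, so the counts stand for few genes, and Krt14 and Dlk2 were not called. The other Tp63 probes tested, with log2 fold changes of 0.91 and 0.84, were not called either. Sftpc, the surfactant protein of type 2 alveolar cells, had a log2 fold change of 1.14 with marked spots kept and was the only 1 of 9 type 2 probes called. Epcam, of all epithelium, had 0.58, and 2 of 5 pan-epithelial probes were higher. Of the red blood cell probes, 2 of 3 were lower, with sums of 205223 to 232711 and 140202 to 150597. Of 8 leukocyte probes tested, most of them of Ptprc, 0 were higher and 1 lower by limma. The lower one was S100a8 of neutrophils (log2 fold change -2.12, named after its values were seen). The list's sum, which counts Ptprc several times, was 504614 to 585441 in normal lung and 657085 to 690772 in the tumors. None of 3 smooth muscle probes was called, with sums of 48627 to 51003 and 37486 to 48136. Col2a1, of cartilage, was well above background on normal arrays 1 and 2 alone, with signals of 263 and 64.8, and no cartilage probe could be tested. The part of these shifts in the airway genes was not tested.

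In blood the airway genes were mostly dim, and both blood arrays were well above background for 9 of 20 club, 11 of 37 ciliated and 13 of 35 mucous cell genes. Of the 5 members, 1 (Scgb1a1) was well above background on both blood arrays, where 54.6% of mRNA probes were. Scgb1a1 had signals of 83.2 in control blood and 67.1 in NNK blood. On the log2 scale normalized over all 8 arrays, it stood at 9.17 in control blood and 6.42 in NNK blood, against 17.98 to 18.38 in lung. Scgb3a2 and Spdef were not well above background in either.

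With 1 blood array a group there is no replicate check and no test. Of the 3 members that could be compared, 1 was at least 2-fold higher in NNK blood and 1 lower, while 23.1% of the 14452 probes compared were higher and 19.1% lower. The higher one was Scgb3a1, with 91.8 in NNK blood and 11.7 in control blood, which was not well above background, so the difference was at least 3.03-fold after quantile normalization. Its log2 difference was 1.62, and ranged from 0.65 to 2.85 over the other settings. The lower one was Scgb1a1, with a log2 difference of -1.53, which ranged from -2.82 to -0.83 over the other settings. Its signals, 83.2 in control and 67.1 in NNK blood, differed less than the normalized values. The median signal was 11.8 on the control and 32.0 on the NNK array. Agr2 had 36.3 in NNK blood and 10.9, not well above background, in control blood, a difference of at least 1.13-fold.

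The longer lists gave 11 club cell, 18 ciliated cell and 17 mucous cell genes that could be compared in blood. Of these, 1, 6 and 4 were at least 2-fold higher in NNK blood and 5, 2 and 1 lower, against 23.1% and 19.1% of all probes compared. Among the lower club cell genes were Cyp2f4, with signals of 378 in control and 244 in NNK blood and a normalized log2 difference of -1.57, and Lypd2, with signals of 1510 and 648 and a difference of -1.85. The median signal was 11.8 on the control and 32.0 on the NNK array, and the normalized differences of both genes were larger than those of their signals. Rsph1 was bright in blood, at 155232 in control and 180375 in NNK blood, and on the scale of all 8 arrays it stood at 17.55 and 17.73 there against 12.32 to 13.78 in lung. These genes were chosen after their values were seen.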

How the data were processed

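RNA of 3 normal lung pieces, 3 lung tumors and 2 blood clots of F344 rats was hybridised by the authors to Arraystar rat lncRNA arrays (1 colour, Agilent). Groups were taken from the sample labels. The deposited files hold each spot's processed intensity from Agilent Feature Extraction 10.5.1.1, background-subtracted and not normalized between arrays, with its median foreground and background intensity. The authors also deposited a table of log2 values, quantile-normalized over all 8 arrays in GeneSpring, used here as an alternative. The array's header names build rn4, so no gene coordinates were taken from GRCr8 beyond the printed windows.

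Here log2 processed signals of 42136 non-control spots were quantile-normalized over the 6 lung arrays (blood over its 2), spots marked as outliers were left out, and spots of a probe averaged, giving 24684 probes. On the lung arrays, the marks on the listed genes were for uneven pixels. Accessions were named through RefSeq (93.2% of 15321 mRNA probes). Probes well above background on at least 3 of 6 lung arrays were tested with limma 3.58.1 in R 4.3.3, with Benjamini-Hochberg adjustment. In blood, at least 1 of 2 arrays had to be well above background. A second fit kept marked spots.

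The members and lists were chosen with earlier results of these data known. Genes named by rule were all members and, per list, up to 3 called rises and 3 called falls with groups apart and an array above background in both, plus Sftpc, Krt5, Epcam, Col2a1 and Acta2, of which Krt5 and Acta2 had no matched probe. The counts of the club cell list include 1 gene that is not reported here. The median signal was 25.0 to 35.6 on lung arrays and 11.8 and 32.0 on blood arrays, no spot was saturated, and the small number of arrays limits the precision. The authors call the tumors and normal pieces matched, but the sample titles give only numbers, so pairing by number was assumed. Deviations of same-numbered arrays from their group means correlated at 0.143, -0.0406 and 0.16. The fit was checked on simulated data. Alternatives were other scalings, background correction, filters, t-tests, a replicate block, a slide block and each lung array left out.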

Additional observations from a re-analysis of the deposited data

How the results depend on the processing

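The members called higher in lung tumor numbered 1 and those lower 0. No member was higher under normexp correction, with all 6 arrays above background, under the methods' t-test and paired t-test with adjusted p, under the paired t-test with unadjusted p, with the replicate block or with the slide as a block, while 2 were with marked spots kept and in the authors' values. Leaving out any 1 lung array, normal or tumor, gave 0, since the adjusted p of Spdef rose past the threshold or the probe failed the filter. The paired fit with the replicate block changed no other count by over 1.5 times.

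The club cell list had 3 lower, and 5 with marked spots kept and in the authors' values. The ciliated cell list had 1 higher and 5 lower. No gene was higher under the paired t-test with adjusted p and with near-identical arrays counted once. There were 3 lower with quantile normalization over all 8 arrays, and 2 lower with normexp, the authors' values, either paired t-test, the slide block and arrays counted once. Leaving out 1 array gave 1 to 2 higher and 3 to 9 lower, with 9 lower and 2 higher without tumor 1 and 3 lower without tumor 2 or tumor 3. The mucous cell list had 9 higher, 4 with all 6 arrays above background, and 5 to 8 with 1 array left out, 5 without any 1 of the tumors. It had 1 lower, 2 with marked spots kept, and 0 with the 75th percentile shift, normexp, the paired t-test with adjusted p, the slide block and arrays counted once.

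The probes called higher and lower over the whole array were 1683 and 1929, 967 and 1256 with normexp, 777 and 974 with arrays counted once and 1090 and 1477 with the paired t-test. With all 6 arrays above background they were 1190 and 1651. Without tumor 1, 2 and 3 they were 1351 and 2052, 1163 and 1712, and 1238 and 1744. Scgb1a1 changed sign with the 75th percentile shift (0.019) and Scgb3a2 with the slide block (0.0047); neither was called. In blood the 1 member higher became 0 with normexp and with both arrays above background, and the 1 lower became 0 with normexp and 2 with no filter. Where not stated, the cause was not tested. Signals near background limit Spdef, Agr2, Foxa3, Gcnt3, Rfx2, Bpifb1, Tekt2 and Galnt7. Scgb3a1 stayed higher under all 17 alternatives run with marked spots kept, from 3.05 to 3.85, which were added after seeing the data.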
